A study of Mus musculus with 4 samples.

Results

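The genes described here encode the enzymes, anchors and transcription factors through which cyclic AMP (cAMP) and cyclic GMP (cGMP) act in the dentate gyrus (DG): adenylyl cyclases, phosphodiesterases, subunits of protein kinase A (PKA), A-kinase anchoring proteins, and the CREB and CREM transcription factors with their coactivators. They were chosen by a rule on gene symbols, as probe sets with a single symbol. This symbol begins with Adcy or Pde followed by a digit, or with Prka, Akap, Creb or Crtc, or reads Crem. The choice was made with earlier results of these data known. The rule found 104 probe sets of 58 genes, and 39 of these genes had a probe set whose signals averaged 50 or more across the 4 arrays, out of 7935 genes that passed this filter. Each gene is given by its brightest probe set, and where a gene's probe sets lie on different sides of 0 after centring, the others are given too. The symbols also gather genes outside these families: Prkab1, Prkag1 and Prkag2 are subunits of the AMP-activated kinase AMPK, which senses AMP and not cAMP, and Crebbp, Crebrf, Crebzf and Pde4dip, whose products bind or resemble members or carry their name, are described apart.

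Adenylyl cyclases make cAMP, driven by G proteins and, for some isoforms, by calcium, and phosphodiesterases break cAMP and cGMP down. Bound cAMP frees the catalytic subunits of PKA from its regulatory subunits, anchoring proteins hold PKA near its substrates, and nuclear PKA phosphorylates CREB, which with its coactivators drives genes that carry a cAMP response element (CRE). In granule cells (GCs), the principal neurons of the DG, this pathway is known for its part in mossy fiber plasticity and in activity-dependent transcription.

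The ECS pool came from mice that had received 11 sessions of electroconvulsive seizure under isoflurane, and the sham pool from control mice that went through the procedure with the current left off. The fluoxetine pool came from mice that drank this selective serotonin reuptake inhibitor (SSRI) at 22 mg/kg per day for 4 weeks in water with saccharin, and the vehicle pool from its control mice. The mice were males bought at 8 weeks of age, of the substrains C57BL/6J or C57BL/6N, and which substrain went into which pool is not given in the sources used here. The labels of the ECS and sham arrays give 6 h after the last session, whereas the methods of the study give 24 h. The fluoxetine pool held 3 mice selected for a small frequency facilitation at the mossy fiber synapse, so it is not a random sample of treated mice. RNA of the DG was pooled within a group and hybridized to 1 Affymetrix mouse genome array per group, and therefore no difference below has an SD, a test or a p-value.

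The values are MAS5 signal intensities, which the authors deposited without a common scale: the trimmed mean signal was 249.9 on the ECS array, 261.0 on the sham array, 414 on the fluoxetine array and 374 on the vehicle array. Ratios were taken from the signals as deposited, so that the median log2 ratio over all 7935 genes was -0.10 for ECS over sham and 0.12 for fluoxetine over vehicle. A median-centred ratio is the same ratio after each array was brought to the median of the others, which shifts ECS ratios up by 0.11 and fluoxetine ratios down by 0.12 on the log2 scale. The control spread of a gene is the median absolute deviation, scaled to an SD, of centred sham over vehicle ratios among the 500 probe sets nearest to it in signal, and it describes how far 2 control pools lie apart at that signal. It was 0.13 to 0.40 for the 39 genes, and it also holds whatever differed in handling between sham and vehicle mice. The filter was passed by 9 of 12 marker genes of GCs, among them Calb1 (1399 in ECS, 3814 in sham, 1353 in fluoxetine and 5396 in vehicle) and Prox1 (98.3, 112, 179.7 and 154.5 in the same order), so that GC markers were present on all 4 arrays.

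Most of the cyclic nucleotide genes stayed within 1.5-fold of their control, the size counted as a change. With ECS, Prkar1b and Pde4b were at least 1.5-fold higher, and no member was at least 1.5-fold lower. With fluoxetine, Prkar1b and Creb3l2 were at least 1.5-fold higher, and again none was lower by that size. These are 2 of 39 genes (5.13%) per treatment, whereas of all 7935 genes 3.84% were higher and 6.47% lower in the ECS comparison. In the fluoxetine comparison 8.49% of all genes were higher and 3.26% lower, so the shares of members lay near or below the background. With each array median-centred, Prkar1b and Pde4b were again the 2 genes higher with ECS and none was lower, against 5.34% and 4.18% of all genes. After centring, fluoxetine left 1 gene higher (Prkar1b) and 2 lower (Crebrf and Pde1b), against 5.82% and 5.13% of all genes.

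**Figure D1:**
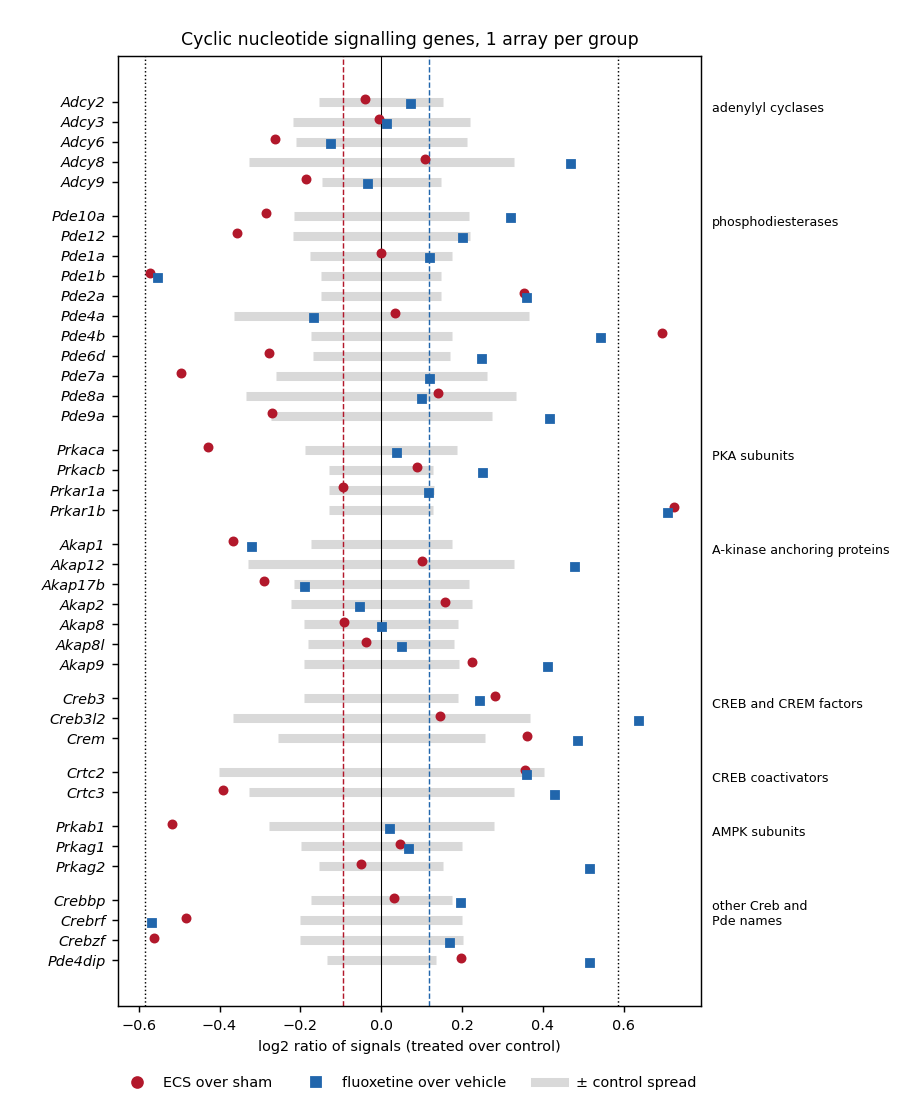
The log2 ratio of signals as deposited for each of the 39 genes, with ECS over sham as red circles and fluoxetine over vehicle as blue squares, grouped by family; gray bars give plus and minus the control spread, dotted lines 1.5-fold and dashed lines the median of all genes in each comparison. Prkar1b stood beyond 1.5-fold with both treatments, Pde4b with ECS and Creb3l2 with fluoxetine.

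Among the PKA subunits, the regulatory subunit gene Prkar1b, whose product is enriched in brain, had a signal of 3500 in ECS, against 2118 in sham, and of 4551 in fluoxetine, against 2782 in vehicle. Both treated arrays were above both control arrays although the fluoxetine and vehicle arrays were brighter throughout. The log2 ratio was 0.73 for ECS and 0.71 for fluoxetine, or 1.65-fold and 1.64-fold. This probe set has the suffix that marks possible cross-hybridization, and the gene has a pair of further probe sets above the filter. One gave 1018 in ECS against 600.1 in sham and 1373 in fluoxetine against 901 in vehicle. The dimmest gave 160.0 in ECS against 98.5 in sham and 282 in fluoxetine against 126 in vehicle. All 3 probe sets were therefore higher with both treatments, by log2 ratios of 0.70 to 0.76 with ECS and of 0.61 to 1.17 with fluoxetine. The centred ratio of sham over vehicle was 0.11, with a control spread of 0.13, and the centred ratios were 0.83 for ECS and 0.59 for fluoxetine, of which the second lay at the size of a change itself.

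The other 3 PKA subunits measured were under 1.5-fold in both comparisons. Prkar1a, the widely expressed regulatory subunit of the same type, gave 2437 in ECS against 2601 in sham and 3948 in fluoxetine against 3634 in vehicle, log2 ratios of -0.09 and 0.12 that lay at the medians of all genes. Its dimmer probe set gave log2 ratios of 0.09 and 0.25. The catalytic subunit gene Prkacb gave 2509.9 in ECS against 2362 in sham and 4078 in fluoxetine against 3425 in vehicle, log2 ratios of 0.09 and 0.25. Its centred ratios were 0.20 for ECS, above its control spread of 0.13, and 0.13 for fluoxetine, and a second, dim probe set was at 0.18 and -0.10. Prkaca, the other catalytic subunit, was lower with ECS (189.6 against 255 in sham, log2 ratio -0.43) and near its control with fluoxetine (367 against 357 in vehicle, log2 ratio 0.04). Its centred ECS ratio of -0.32 exceeded its control spread of 0.19. Prkar2a, a regulatory subunit of the second type, remained below the filter at a mean signal of 20.2.

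Promoter sequences of members were set beside these values because the pathway ends at the CRE. RefSeq promoters of the mouse build GRCm38.p6, from 250 bases before to 50 after a start site, were found for 31 of the 39 genes. None was found for Crem, Crtc2, Adcy6, Adcy8, Akap2, Akap12, Pde7a or Pde9a, so the motifs of these genes are not described. Promoters are shown for both type I regulatory subunits, of which Prkar1b was higher with both treatments and Prkar1a was not, and for Pde4b and Creb3l2, the other genes beyond 1.5-fold. Several promoters of Prkar1b, Prkar1a and Pde4b are listed by RefSeq, and the ones shown hold a motif, whereas 4 of 5 promoters of Prkar1b, 3 of 6 of Prkar1a and 3 of 4 of Pde4b hold none. They lie at chr5:139149952-139150251, minus strand (Prkar1b), chr11:109650612-109650911, plus strand (Prkar1a), chr4:102421305-102421604, plus strand (Pde4b) and chr6:37442099-37442398, minus strand (Creb3l2). Capitals mark the CRE (TGACGTCA) and its core (TGACG or CGTCA, which also lie within the CRE), and the start site follows the first 250 bases.
Prkar1b: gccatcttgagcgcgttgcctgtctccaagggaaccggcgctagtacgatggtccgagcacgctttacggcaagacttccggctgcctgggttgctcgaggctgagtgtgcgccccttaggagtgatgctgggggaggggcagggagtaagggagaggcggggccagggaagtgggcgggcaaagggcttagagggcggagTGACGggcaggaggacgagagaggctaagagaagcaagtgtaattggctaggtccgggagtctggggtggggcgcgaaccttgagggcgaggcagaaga
Prkar1a: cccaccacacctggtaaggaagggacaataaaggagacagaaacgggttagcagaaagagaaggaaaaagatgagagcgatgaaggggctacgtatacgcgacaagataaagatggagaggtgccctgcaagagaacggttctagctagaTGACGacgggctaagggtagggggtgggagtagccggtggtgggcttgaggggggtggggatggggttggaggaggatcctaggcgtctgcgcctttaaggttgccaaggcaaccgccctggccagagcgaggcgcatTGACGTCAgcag
Pde4b: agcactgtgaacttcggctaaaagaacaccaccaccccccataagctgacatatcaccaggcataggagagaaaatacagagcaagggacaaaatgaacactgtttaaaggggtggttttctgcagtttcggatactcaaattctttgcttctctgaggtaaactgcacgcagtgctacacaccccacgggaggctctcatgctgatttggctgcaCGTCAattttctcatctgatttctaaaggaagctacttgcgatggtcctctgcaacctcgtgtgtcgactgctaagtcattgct
Creb3l2: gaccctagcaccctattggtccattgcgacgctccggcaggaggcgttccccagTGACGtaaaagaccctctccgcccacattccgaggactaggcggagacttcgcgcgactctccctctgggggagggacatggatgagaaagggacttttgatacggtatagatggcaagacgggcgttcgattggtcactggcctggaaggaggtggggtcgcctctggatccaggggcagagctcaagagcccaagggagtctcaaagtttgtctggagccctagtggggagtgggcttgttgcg
A full CRE stood in the promoter of Prkar1a, whose signal differed little from its controls. It was the only gene with one among the 31, in 2 overlapping promoters of the 64 listed for these genes (3.12%), and 1.79% of all 32851 mouse promoters in the table hold a CRE on either strand. Prkar1b, Pde4b and Creb3l2 had only the core in the promoters shown. At least 1 promoter with the core was listed for 15 of the 31 genes, against 6228 of all 27025 genes. The 31 genes had 64 promoters and the 27025 genes 32851, so the members had more promoters per gene in which to hold it. Counted by promoter, the core stood in 26.6% of 64 promoters of these genes, against 20.8% of all promoters. The AP-1 motif (TGACTCA or TGAGTCA), to which Fos and Jun proteins bind, was found in 3.12% of the 64 promoters and in 5.20% of all. Such matches are only letters in the window, and no binding was measured.

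The phosphodiesterases, the family with the most members, also had the widest range of ratios. With ECS their log2 ratios ranged from -0.57 to 0.69 with a median of -0.27, and with fluoxetine from -0.55 to 0.54 with a median of 0.20, over 11 of 19 genes that passed the filter. After centring the medians were -0.16 and 0.08. With the sham and vehicle arrays exchanged after centring, they were 0.0995 and -0.079, so both turned round. The family's median centred ratio of sham over vehicle was 0.20. Pde4b, which encodes a cAMP-specific enzyme sensitive to rolipram, gave 451 in ECS against 279 in sham and 627 in fluoxetine against 429.9 in vehicle. It was higher by 1.62-fold with ECS and 1.46-fold with fluoxetine, and its sham and vehicle signals differed by only -0.12 (log2, centred). Its dimmer probe set gave 307 in ECS against 163 in sham and 472 in fluoxetine against 278 in vehicle, log2 ratios of 0.91 and 0.76, so that this probe set passed 1.5-fold with both treatments. Pde4a, of the same subfamily, was dim (66.8 in ECS, 65.2 in sham, 71.9 in fluoxetine and 80.7 in vehicle) and lay within its control spread of 0.37 in both comparisons.

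Pde1b stood at the other end. This calcium- and calmodulin-dependent enzyme, which hydrolyzes both cAMP and cGMP, gave 747 in ECS against 1111 in sham and 933 in fluoxetine against 1369 in vehicle. Both treated arrays were below both control arrays, although the fluoxetine array was brighter in general than the sham array. The log2 ratios were -0.57 and -0.55, or 1.49-fold and 1.47-fold lower and so just inside the size of a change, and centring moved them to -0.46 and -0.68. Pde1b rests on 1 probe set, and its centred sham over vehicle ratio of 0.20 exceeded its control spread of 0.15. Its relative Pde1a, which depends on calcium and calmodulin in the same way, differed little: 371 in ECS, 371 in sham, 494 in fluoxetine and 454 in vehicle. Pde2a, whose cAMP hydrolysis is stimulated by cGMP, was higher with both treatments (662 against 518 in sham and 897 against 699 in vehicle). Its log2 ratios were 0.35 and 0.36, or 0.46 and 0.23 after centring, with a control spread of 0.15.

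The remaining phosphodiesterases were mostly lower with ECS and higher with fluoxetine in the deposited signals. Pde10a, a dual enzyme best known from the striatum, gave 153 in ECS against 187 in sham and 273 in fluoxetine against 219 in vehicle. The cGMP-specific Pde9a gave 91.1 in ECS against 109.8 in sham and 140.7 in fluoxetine against 105 in vehicle. Both thus moved in opposite directions by at least 1.2-fold, but after centring neither exceeded its control spread in the ECS comparison (-0.18 against 0.22 for Pde10a and -0.16 against 0.27 for Pde9a). The cAMP-specific Pde7a was lower with ECS (100.3 against 141 in sham, log2 ratio -0.50), and its fluoxetine ratio was 0.12. Its other probe sets above the filter gave -0.56 and -0.10 with ECS, of which the second was at 0.0095 after centring, and 0.37 and 0.02 with fluoxetine. Pde8a, also cAMP-specific, lay within its control spread (61.5 in ECS, 55.8 in sham, 109.7 in fluoxetine and 102 in vehicle). Pde6d and Pde12 do not hydrolyze cyclic nucleotides by themselves, Pde6d being a chaperone for prenylated proteins and Pde12 a mitochondrial enzyme that acts on RNA. Their log2 ratios were -0.28 and -0.36 with ECS and 0.25 and 0.20 with fluoxetine.

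**Figure D2:**
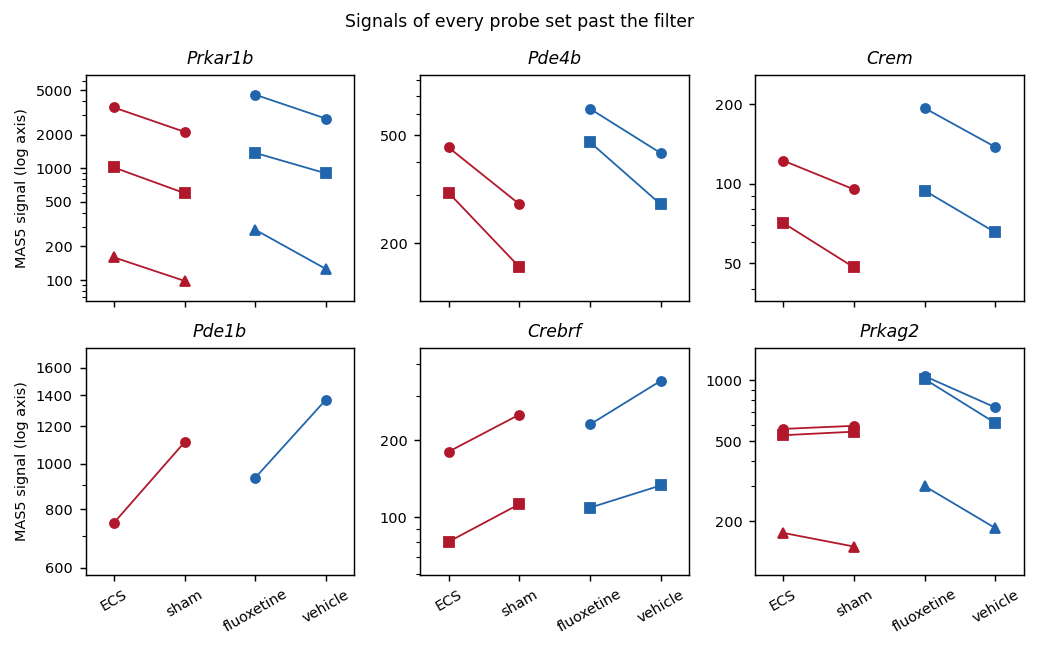
MAS5 signals on a log axis of every probe set above the filter for 6 genes, 1 array per group, with the ECS and sham arrays joined in red and the fluoxetine and vehicle arrays in blue; marker shapes distinguish probe sets of a gene. All probe sets of Prkar1b, Pde4b and Crem were higher in the treated pool in both comparisons, those of Pde1b and Crebrf were lower in both, and those of Prkag2 were higher with fluoxetine, by log2 ratios of 0.52 to 0.73.

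No adenylyl cyclase was beyond 1.5-fold by its brightest probe set. With ECS their log2 ratios ranged from -0.26 to 0.11 and with fluoxetine from -0.12 to 0.47 (5 genes), with medians of -0.04 and 0.01 that turned to 0.07 and -0.11 after centring. After centring, none exceeded the control spread with ECS, whereas Adcy6 (-0.25), Adcy8 (0.34) and Adcy9 (-0.16) did with fluoxetine, in different directions. The brightest were Adcy2, a cyclase stimulated by G protein beta-gamma subunits (961 in ECS, 989 in sham, 1402 in fluoxetine and 1331 in vehicle), and the broadly expressed Adcy9 (749, 852, 1385 and 1417 in the same order). Adcy6, which calcium inhibits, was slightly lower in both comparisons (log2 ratios of -0.26 and -0.12). The calcium-stimulated Adcy8, dim at 65.5 in ECS, 60.8 in sham, 132 in fluoxetine and 95.1 in vehicle, had the highest fluoxetine ratio of the family at 0.47. After centring this ratio was 0.34, just above the control spread of 0.33. For Adcy3, the cyclase of primary cilia, the probe sets disagreed: the brightest gave log2 ratios of -0.01 and 0.01, the other -0.52 with ECS and 0.63 with fluoxetine.

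A-kinase anchoring proteins had no member beyond 1.5-fold among the 7 of 11 genes measured, and their medians, -0.04 for ECS and 0.00098 for fluoxetine, turned to 0.07 and -0.12 after centring. Akap1, which anchors PKA at mitochondria, was lower in both comparisons: 248 in ECS against 319.7 in sham and 386 in fluoxetine against 482 in vehicle. Its log2 ratios were -0.37 and -0.32, or -0.26 and -0.44 after centring, with a control spread of 0.17. Its second probe set gave -0.30 and -0.37. Akap9, a scaffold of the centrosome and Golgi, was higher by its brightest probe set (log2 ratios of 0.22 and 0.41), whereas its dimmer one gave -0.35 with ECS and 0.53 with fluoxetine, the widest disagreement in the ECS comparison. Akap12, also called gravin, was at 70.3 in ECS, 65.6 in sham, 96.6 in fluoxetine and 69.3 in vehicle. Akap17b had log2 ratios of -0.29 and -0.19, and its centred fluoxetine ratio of -0.31 exceeded its control spread of 0.22. Akap2 had 0.16 and -0.05, and its centred ECS ratio of 0.27 exceeded its control spread of 0.22. The nuclear anchor Akap8 (-0.09 and 0.00098) and its homolog Akap8l (-0.04 and 0.05) lay within theirs by their brightest probe sets. The second probe set of Akap8 was lower with ECS, at -0.41, or -0.30 after centring with a control spread of 0.24.

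The transcription factors, with only 3 genes measured, were the family whose members were all on the same side in both comparisons. Crem, Creb3 and Creb3l2 had log2 ratios above 0 as deposited, after centring and after quantile normalization. Their medians as deposited were 0.28 for ECS and 0.49 for fluoxetine. Of all 7935 genes as deposited, 2823 were above 0 with ECS and 5304 with fluoxetine. After centring, Creb3 lay within its control spread of 0.19 with fluoxetine (0.12), and Creb3l2 within 0.37 with ECS (0.25). Crem, whose products include activators and the inducible repressor ICER, gave 122 in ECS against 95.2 in sham and 193 in fluoxetine against 138 in vehicle. Its second probe set gave 71.1 in ECS against 48.3 in sham and 94.2 in fluoxetine against 65.5 in vehicle, so the 4 log2 ratios of this gene lay between 0.36 and 0.56, all under 1.5-fold. The centred sham over vehicle ratio of Crem was -0.03, with a control spread of 0.26. Creb3 and Creb3l2 encode factors held in the endoplasmic reticulum membrane until cleaved and are not targets of cAMP in the manner of Crem. Creb3 gave 433 in ECS against 356 in sham and 644 in fluoxetine against 544 in vehicle, log2 ratios of 0.28 and 0.24, and a probe set of nearly the same signal gave 0.16 and 0.58. Creb3l2 gave 66.5 in ECS against 60.1 in sham and 99.6 in fluoxetine against 64.0 in vehicle, which was 1.56-fold with fluoxetine. After centring the fluoxetine ratio of Creb3l2 was 0.51, and the centred ratio of its sham over vehicle signals was already 0.41.

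Creb1 itself, the gene of CREB, was not among the genes measured. Its 4 probe sets had mean signals of 5.70 to 37.4 and reached at most 50.4 on any array, so no statement on Creb1 mRNA can be drawn from these arrays. The 18 other genes below the filter had highest mean signals of 2.55 to 43.6. They were Adcy4, Adcy7, Akap10, Akap3, Akap4, Akap7, Creb3l1, Creb3l3, Creb3l4, Pde1c, Pde3a, Pde6a, Pde6b, Pde6c, Pde6g, Pde6h, Pde7b and Prkar2a, of which the Pde6a, Pde6b, Pde6c, Pde6g and Pde6h genes encode phosphodiesterase subunits of photoreceptors. Pde7b, at a mean of 43.6, was the gene just outside the filter, and Crtc2, at 54.4, the one just inside it.

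The coactivators Crtc2 and Crtc3, which enter the nucleus when dephosphorylated and join CREB, were both dim. Crtc2 gave 42.0 in ECS against 32.8 in sham and 80.4 in fluoxetine against 62.6 in vehicle, log2 ratios of 0.36 in either comparison, or 0.47 and 0.24 after centring, with a control spread of 0.40. Crtc3 gave 69.7 in ECS against 91.5 in sham and 115 in fluoxetine against 85.8 in vehicle. Its directions were thus opposite, but its sham and vehicle arrays differed by 0.60 (log2, centred), more than either treated array from its control.

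Among the remaining Creb and Pde names, Crebrf, a regulator of Creb3, was lower in both comparisons: 181 in ECS against 252 in sham and 231 in fluoxetine against 342 in vehicle. Both treated arrays were below both control arrays. Its log2 ratios were -0.48 and -0.57, or -0.37 and -0.69 after centring, with a control spread of 0.20. Its dimmer probe set gave -0.49 and -0.29. Crebzf, a leucine zipper factor, was lower with ECS (159 against 235 in sham, log2 ratio -0.56) and was at 314 in fluoxetine against 279 in vehicle (log2 ratio 0.17). Its second probe set was lower in both, at -0.44 and -0.19, and its centred fluoxetine ratio of -0.32 exceeded its control spread of 0.28. Crebbp, the acetyltransferase that binds phosphorylated CREB, had log2 ratios of 0.03 and 0.20. Pde4dip, a scaffold named myomegalin, gave 694 in ECS against 605 in sham and 1323 in fluoxetine against 925 in vehicle, and its second probe set was higher in both comparisons as well (0.28 and 0.36).

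Of the AMPK subunits, the regulatory gamma subunit gene Prkag2 gave 575 in ECS against 595 in sham and 1051 in fluoxetine against 734 in vehicle. The fluoxetine ratio was 0.52, and its other probe sets gave 0.69 and 0.73, both beyond 1.5-fold, whereas the 3 probe sets had ECS ratios of -0.06 to 0.23. The beta subunit gene Prkab1 was lower with ECS (74.2 against 106 in sham, log2 ratio -0.52) and level with fluoxetine (138 against 136 in vehicle). Prkag1 was near its controls in both (log2 ratios of 0.05 and 0.07).

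More than 1 probe set above the filter was present for 17 of the 39 genes. All probe sets of a gene gave the same sign after centring in 13 of them with ECS and in 12 with fluoxetine, and the median range between probe sets of a gene was 0.13 and 0.22 on the log2 scale.

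The 39 genes had a median log2 ratio of -0.04 for ECS and 0.17 for fluoxetine, whereas the medians of all genes were -0.10 and 0.12. After centring, 18 members (46.2%) exceeded their control spread with ECS and 17 (43.6%) with fluoxetine, against 46.4% and 48.5% of all genes. Akap9, Crem, Pde2a, Pde4b, Pde4dip and Prkar1b (15.4%) were above it in both comparisons, against 13.5% of all genes, and Akap1, Crebrf and Pde1b (7.69%) were below it in both, against 11.2%. No member exceeded it in opposite directions, which 3.21% of all genes did. The 2 treatments have separate control arrays, and across the 39 genes Spearman's rho between the comparisons was 0.55, against 0.49 across all genes, while 23 members (59.0%) had the same sign in both after centring, against 66.8% of all genes. Genes share the arrays and are not independent replicates.

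**Figure D3:**
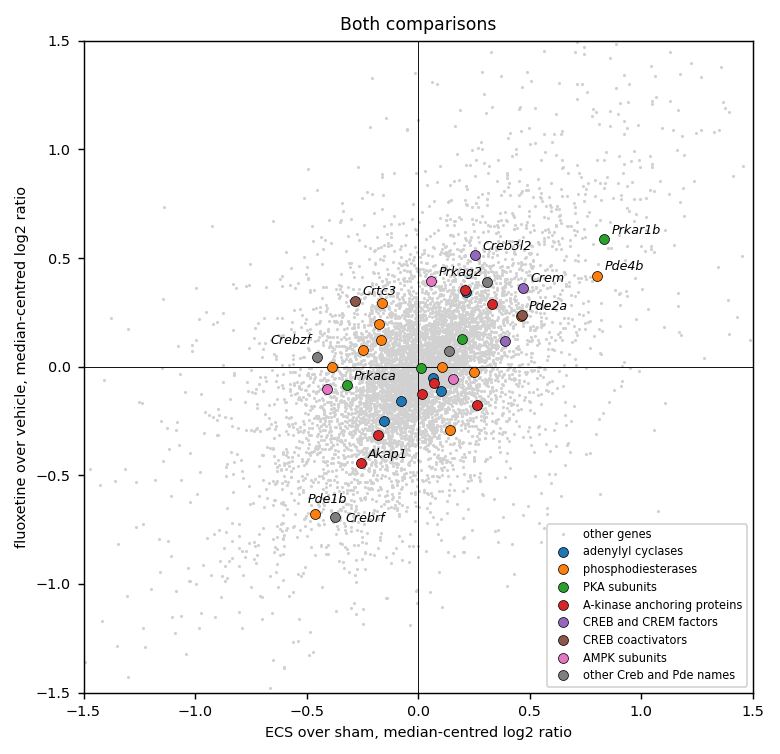
Median-centred log2 ratios of ECS over sham (horizontal) and fluoxetine over vehicle (vertical) for the 39 genes, coloured by family, over all other genes in gray; 135 of the 7935 genes lie outside the axes. Prkar1b, Pde4b, Crem and Pde2a lie at upper right and Pde1b, Crebrf and Akap1 at lower left, within the cloud of all genes.

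The components around these families were taken from lists of pathway genes. As deposited, 3.84% of all genes were at least 1.5-fold higher and 6.47% lower with ECS. With fluoxetine 8.49% were higher and 3.26% lower, and these shares stand beside the counts for the lists below. Upstream, none of the 6 G protein alpha subunit genes measured (Gnas, Gnai1, Gnai2 and Gnai3 among them) was beyond 1.5-fold, with medians of -0.23 for ECS and 0.11 for fluoxetine. Of 8 receptors coupled to the inhibitory G protein, ECS had 1 at least 1.5-fold higher and 1 lower (2 and 1 after centring). Fluoxetine had 3 higher and 2 lower, also after centring. Npy2r, a neuropeptide Y receptor, was lower with both treatments (log2 ratios of -1.09 and -1.08), and the somatostatin receptor gene Sstr2 was higher with both (0.69 and 1.30). The 3 stimulatory receptors measured were Calcrl (-0.80 and -0.09), Crhr1 (0.05 and 0.78) and Ptger4 (0.20 and 0.36). Calcrl was dim (31.6 in ECS against 54.9 in sham), and its sham and vehicle signals differed by -0.73 (log2, centred).

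On the cGMP side, the 4 genes of synthesis and cGMP-dependent kinases had a median of -0.60 with ECS, or -0.49 after centring, and all 4 were below 0, as were 5092 of all 7935 genes in the deposited signals. Nos1, which makes the nitric oxide that activates soluble guanylyl cyclase, gave 100.4 in ECS against 275 in sham and 197 in fluoxetine against 319 in vehicle, log2 ratios of -1.46 and -0.69. Prkg1, a cGMP-dependent kinase, was at least 1.5-fold lower with ECS only (-0.70 and -0.04), and Gucy1b1, a guanylyl cyclase subunit, had ratios of -0.50 and -0.11. Prkg2, another cGMP-dependent kinase, was not among the 4 genes measured here. The study lists Prkg2 among the genes most lowered with ECS that changed significantly with both treatments. Prkg1 was dim (47.9 in ECS against 77.8 in sham), and its sham and vehicle signals differed by -0.36 (log2, centred). Npr2, a natriuretic peptide receptor, had -0.15 and 0.41, and its centred ECS ratio was -0.046. Of 9 other cAMP effectors and PKA inhibitors, ECS had 1 lower, and fluoxetine 1 higher and 2 lower (0 and 3 after centring). Pkib, an inhibitor of the PKA catalytic subunit, gave 81.5 in ECS against 159.9 in sham and 188 in fluoxetine against 292 in vehicle, and its log2 ratios of -0.97 and -0.64 passed 1.5-fold in both comparisons. Its brighter relative Pkia gave 2540.4 in ECS against 2930.2 in sham and 3141 in fluoxetine against 4548 in vehicle (-0.21 and -0.53). After centring the ratios of Pkia were -0.10 and -0.66, the second beyond 1.5-fold, with a control spread of 0.13. Ppp1r1b, which encodes the PKA-regulated phosphatase inhibitor DARPP, had log2 ratios of 0.03 and -0.73, but its sham and vehicle signals differed by -0.82 (log2, centred).

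Downstream, the target list was drawn up with earlier results of these arrays known, so its values give no contrast with the signalling genes. Of 22 genes known as cAMP or CRE targets, 16 were at least 1.5-fold higher and 1 lower with ECS, with a median log2 ratio of 2.06. Fluoxetine had 13 of them higher and 1 lower, with a median of 1.13. Of all genes, 3.84% were higher and 6.47% lower with ECS, and 8.49% higher and 3.26% lower with fluoxetine. The immediate early gene Arc gave 1388 in ECS against 72.5 in sham and 909 in fluoxetine against 125 in vehicle. Most of these targets respond to other pathways too, and many are immediate early genes. Of 9 CREB partners and CREB kinases outside the named families, ECS had 1 and fluoxetine 2 at least 1.5-fold higher (1 and 1 after centring). Neither had any lower by that size. Cited2, which binds the same coactivator as CREB, was the gene higher with both (0.79 and 0.73). These lists were drawn up with earlier results of the same arrays known, so their counts are descriptions only.

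**Figure D4:**
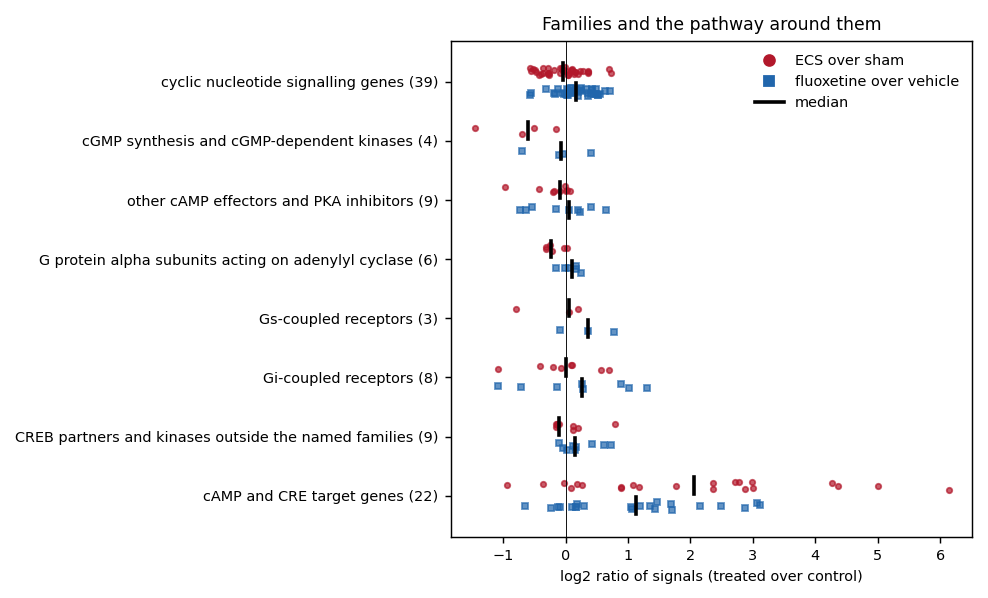
The log2 ratios of signals as deposited for the 39 genes and for 7 lists of pathway genes (number of genes measured in parentheses), with ECS over sham as red circles and fluoxetine over vehicle as blue squares; black bars are medians. The cAMP and CRE target genes had medians of 2.06 and 1.13, and the signalling genes of -0.04 and 0.17. The target list was drawn up with earlier results of these arrays known.

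In pooled tissue, fewer cells of a type and less RNA per cell cannot be told apart. The summed signal of the 9 GC markers was 8158 in ECS against 12959.9 in sham and 10167 in fluoxetine against 18901 in vehicle, with 6 of 9 at least 1.5-fold lower with ECS (4 after centring) and 5 with fluoxetine (5 after centring). Pde1b, Crebrf and Akap1 were lower in the same arrays. The summed signal of 10 astrocyte markers was 14145 in ECS against 15019 in sham and 23715 in fluoxetine against 20724 in vehicle, with 1 higher and 1 lower with ECS (1 and 0 after centring) and 2 higher with fluoxetine. For 9 microglial markers it was 4565 in ECS against 5088 in sham and 9373 in fluoxetine against 6871 in vehicle, with 1 lower with ECS and 3 higher with fluoxetine (0 and 2 after centring). For 10 interneuron markers it was 8209 in ECS against 8176 in sham and 12509.7 in fluoxetine against 10794 in vehicle, with 1 higher with ECS (2 after centring) and 3 with fluoxetine. Only 4 of 10 pyramidal cell markers of CA1 and CA3 passed the filter, and their sum was 958 in ECS against 677 in sham and 1404 in fluoxetine against 1042 in vehicle, with Bok higher in both (log2 ratios of 0.83 and 0.85) and Pou3f1 lower in both (-1.23 and -1.42). For 8 endothelial and pericyte markers the sum was 1571 in ECS against 1484 in sham and 2529 in fluoxetine against 2032 in vehicle. As deposited, 2 were higher with fluoxetine, and after centring 1 was higher with ECS and 1 with fluoxetine. No marker of these 6 lists that passed the filter was at 0 on any array. Prkar1b, Pde4b and Crem were higher with both treatments, as were the pyramidal and endothelial sums as deposited. The interneuron sum was nearly level with ECS (8209 against 8176 in sham) and higher with fluoxetine. The astrocyte and microglial sums were lower with ECS and higher with fluoxetine. The fluoxetine array was also brighter throughout than the vehicle array (trimmed mean signals of 414 and 374). Bok made up most of the pyramidal sum (683 in ECS, 385 in sham, 1004 in fluoxetine and 555 in vehicle). Of the other pyramidal markers, Nnat was higher (0.80 and 0.04) and Wfs1 lower (-0.39 and -0.14). Pou3f1 was dim (19.2 in ECS against 44.9 in sham), and its sham and vehicle signals differed by -0.71 (log2, centred). The part of cell makeup in the ratios of Prkar1b, Pde4b and Crem was not tested.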

How the data were processed

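Pooled RNA of the DG was measured on 4 arrays, 1 each for ECS, sham, fluoxetine and vehicle. The authors made the deposited values with the MAS5 algorithm, a summary of all probes of a probe set as 1 linear intensity; the methods of the study name the Affymetrix Microarray Suite 5.0. The intensities carry no common scale, and the array medians differ accordingly. The number of arrays limits the precision, and no test was possible.

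Probe sets were named from the platform annotation: of 22626 probe sets other than controls, 20380 had 1 gene, and 13422 had a mean signal of at least 50. For each gene the brightest probe set was kept, and log2 ratios of treated to control signals were computed with Python 3.11.15, numpy 2.4.6 and pandas 2.3.3 and drawn with matplotlib 3.10.9. A change was at least 1.5-fold. The steps were tested on simulated arrays. The members and the gene lists were chosen with earlier results of these data known. Every member past the filter was named, and of each pathway list at most the 4 genes with the largest mean absolute log2 ratio over both comparisons; the GC marker Prox1 was named beyond this, after its values were seen. Alternatives were median-centring, quantile normalization, other filters, a floor of 50, a pseudocount of 16, the mean over probe sets, probe sets without the cross-hybridization suffixes, exchanged control arrays and sizes of 1.2-fold and 2-fold. The control arrays were exchanged after median-centring. Sequences came from RefSeq promoters.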

Additional observations from a re-analysis of the deposited data

Results flagged for a closer look

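Crtc3, Pde9a and Pde10a were lower with ECS and higher with fluoxetine, each by at least 1.2-fold, and are set apart for that; with 1 array per group the difference was not tested. The log2 ratio with ECS minus that with fluoxetine was -0.82 for Crtc3, -0.69 for Pde9a and -0.61 for Pde10a. All 3 genes had higher sham than vehicle signals after centring (log2 ratios of 0.60, 0.56 and 0.28 in that order of genes). With the control arrays exchanged on median-centred signals, Crtc3 was at 0.31 for ECS and -0.29 for fluoxetine. Pde9a was at 0.40 and -0.27 and Pde10a at 0.0995 and -0.079, so that all 3 turned round in both comparisons.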

How the results depend on the processing

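No member beyond 1.5-fold as deposited reversed its direction under any alternative. Of the 39 genes, 2 were higher with ECS (Prkar1b and Pde4b); the count was 11 of 58 with no filter, 4 with at least 50 on at least 1 array, 4 with the control arrays exchanged, 6 at 1.2-fold and 0 at 2-fold. None was lower with ECS; the count was 4 with no filter and 14 at 1.2-fold. With fluoxetine 2 were higher; the count was 1 after median-centring, quantile normalization, a filter of 200 or a pseudocount of 16, 7 with no filter, 4 with the mean over probe sets, 1 with exchanged controls, 14 at 1.2-fold and 0 at 2-fold. None was lower with fluoxetine; the count was 2 after median-centring, quantile normalization or exchanged controls, 6 with no filter, 1 with at least 50 on at least 1 array and 3 at 1.2-fold. The genes added with no filter have mean signals under 50. The control arrays were exchanged on median-centred signals. Each such ratio therefore holds the difference between the sham and vehicle pools and also the centring shift. The median fluoxetine ratio was then -0.069, and 37 of 78 ratios of single genes moved from the deposited ratio by more than the control spread. The gene higher with fluoxetine was Crtc2, and Prkar1b was at 0.48 with fluoxetine. With no filter, 1484 of all 12393 genes were higher and 1718 (13.9%) lower with ECS, and 15.7% higher and 11.3% lower with fluoxetine. At 1.2-fold, 11.7% of all genes were higher and 26.1% lower with ECS, and 30.5% higher and 11.2% lower with fluoxetine. At least 50 on at least 1 array gave 4.71% higher with ECS and 3.8% lower with fluoxetine. Exchanged controls gave 7.2% higher with ECS, and 6.49% higher and 6.35% lower with fluoxetine. The share higher with fluoxetine was 5.51% after quantile normalization, 6.32% at a filter of 200, 7.26% with the pseudocount and 8.2% with the mean over probe sets. At 2-fold, 1.4% were higher with ECS and 2.79% with fluoxetine. Creb3l2 was under 1.5-fold with fluoxetine after centring. No paired analysis was possible because each group has 1 array. Leaving out an array leaves no comparison.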
